A study of Mus musculus with 12 samples.

Results

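The genes described here encode activin and inhibin subunits, the follistatin-type proteins and the activin receptors. They were Inhba, Inhbb, Inha, Fst, Fstl3, Fstl1, Acvr2a, Acvr2b and Acvr1b, taken as every probe set that the platform annotation assigned to one of these 9 genes alone, which gave 17 of the 34945 probe sets assigned to a single gene. A further probe set, shared between Acvr2a and Orc4, was left out. Levels were measured on Affymetrix mouse arrays in gonads of E11.5 mouse embryos, the age at which the bipotential gonad starts to become a testis or an ovary.

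The study compared 4 groups of 3 arrays each: XY and XX gonads of Cbx2 knockout embryos (KO XY, KO XX) and XY and XX gonads of wild-type embryos (WT XY, WT XX). Cbx2 encodes a chromobox protein of the Polycomb repressive complex, which keeps developmental genes silent. Knockout embryos came from matings of heterozygotes, and the sources used here do not describe the deleted part of the gene. Each array held RNA of gonadal cells cut by laser from 30 µm frozen sections, guided by tissue form and by GATA4 staining, and pooled from 2 or 3 individuals. A p-value here therefore measures the spread between pools.

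One label field, that of the sample source, calls the WT arrays KO XX gonads, while their titles and stated genotypes say wild type. The Cbx2 probe set did not fall in the arrays titled KO but exceeded WT by 0.52 ± 0.12 in XY and by 0.74 ± 0.12 in XX (0.32 and 0.35 averaged over its probe sets), and whether it lies in the deleted part is not given, so KO and WT here mean libraries carrying those titles. Xist averaged 5.95 in KO XY and 6.03 in WT XY and 12.8 in KO XX and 12.6 in WT XX, so each group matched its labelled sex.

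Activins are dimers of inhibin beta subunits. They bind a type II receptor (ACVR2A or ACVR2B), which recruits a type I receptor such as ACVR1B, and the type I receptor then phosphorylates SMAD2 and SMAD3. A beta subunit joined to the alpha subunit gives an inhibin, which opposes activin at its receptors, while follistatin binds activin outside the cell and neutralises it. In the fetal mouse gonad, Fst is known as a gene of the developing ovary that holds back testis-type blood vessels, and Inhbb as the gene of the activin B subunit, whose product FST opposes.

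Values are log2 RMA values, in which 1 unit is a 2-fold change, and differences are KO minus WT or XY minus XX on that scale. Intervals are 95% confidence intervals of the fit. Each difference came from limma over all 34945 probe sets, and a probe set passed the test at a Benjamini-Hochberg adjusted p under 0.05. A level of one probe set cannot be set against that of another, so levels are compared between groups only.

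Inhbb, Inha and Fst were lower in knockout gonads of both sexes, Fstl1 was higher in both, and Inhba, Fstl3, Acvr2a, Acvr2b and Acvr1b did not pass the test on their brightest probe sets. The brightest probe set is the one with the highest mean over all arrays. In XY gonads 4 of the 17 probe sets fell and 2 rose, where of all probe sets 10.9% passed, 5.76% lower and 5.13% higher. In XX gonads 5 fell and 2 rose, where 11.0% of all passed, 4.38% lower and 6.66% higher. By gene, on the brightest probe sets, 3 fell and 1 rose of 9 in each sex. Of all genes 12.4% passed in XY (6.33% lower, 6.1% higher) and 12.6% in XX (4.96% lower, 7.67% higher). KO and WT arrays did not overlap for 10 of the 17 probe sets in each sex, which held for 33.6% of all probe sets in XY and 24.9% in XX. The members' median difference was -0.20 in XY and -0.10 in XX, beside 0.00 and -0.02 over all probe sets.

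**Figure D1:**
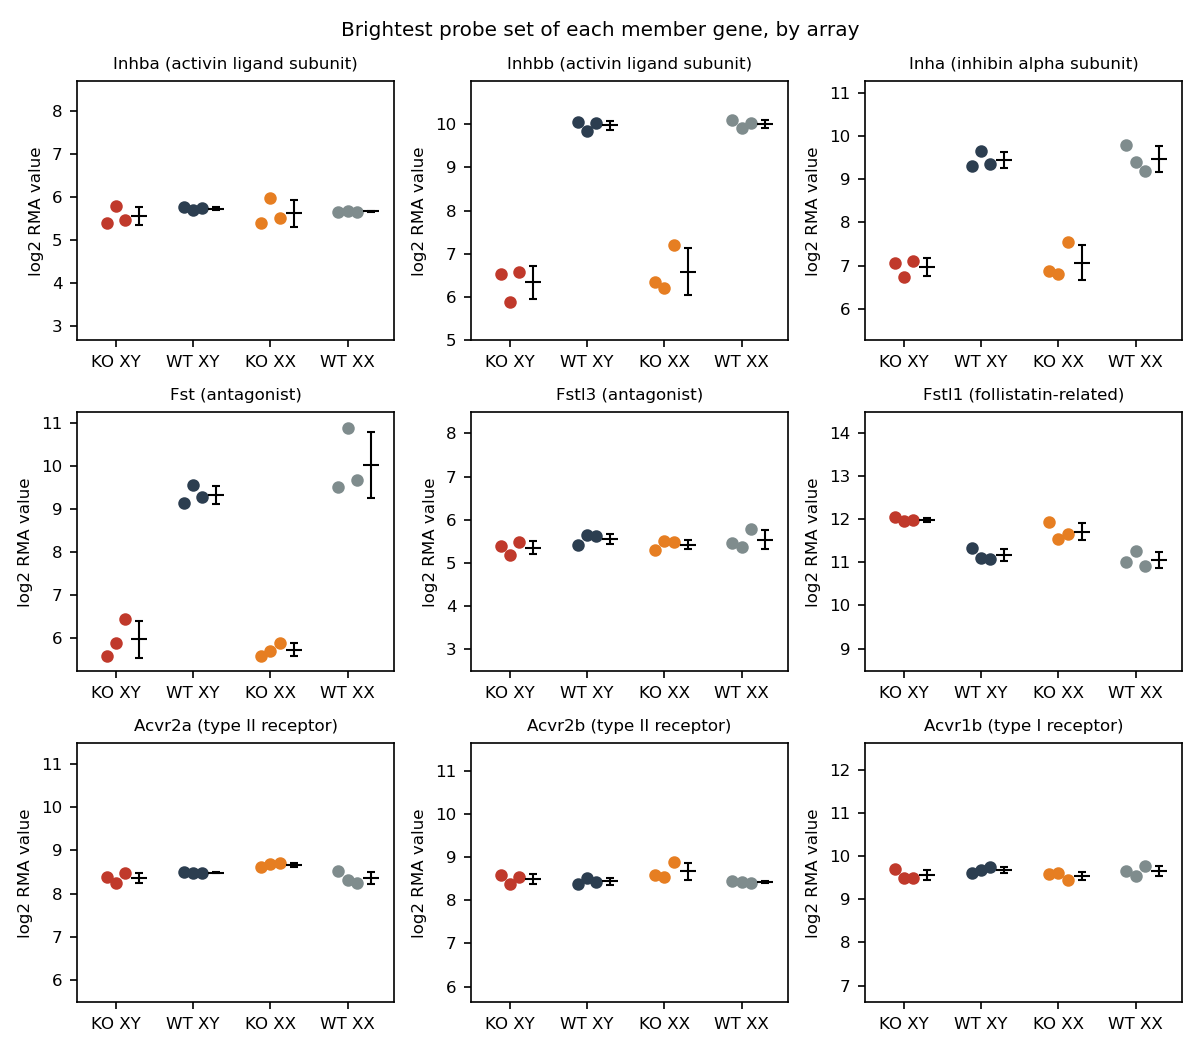
The plot of member levels by array shows log2 RMA values of the brightest probe set of each of the 9 genes, one point per array, in KO XY, WT XY, KO XX and WT XX, with the mean and SD of 3 arrays at the right of each group; every vertical axis spans the same 6 log2 units. Inhbb, Inha and Fst lie lower in every KO array than in every WT array and Fstl1 lies higher, while the receptors, Inhba and Fstl3 stay within a narrow band.

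Among the ligand subunits, Inhbb, which encodes the beta subunit of activin B and inhibin B, had the largest decrease in knockout gonads. Its brighter probe set (1426858_at) read 6.53, 5.89 and 6.59 in the KO XY arrays, against 10.05, 9.85 and 10.03 in the WT XY arrays. It read 6.35, 6.20 and 7.21 in the KO XX arrays, against 10.09, 9.92 and 10.02 in the WT XX arrays. Every KO array lay more than 2 units below every WT array, and the WT arrays of both sexes overlapped. In bulk tissue, fewer cells that make a transcript and less of it per cell cannot be told apart.

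Inhbb changed by -3.64 ± 0.23 (SE, adjusted p = 1.99e-07 by limma) in XY gonads and -3.42 ± 0.23 (adjusted p = 3.94e-07) in XX gonads, or 12.5-fold and 10.7-fold lower levels. Among all probe sets this was the decrease in position 20 in XY and in position 14 in XX. The dimmer Inhbb probe set (1426859_at) moved less, with 6.03 ± 0.08 in KO XY and 6.34 ± 0.05 in WT XY, and 5.81 ± 0.12 in KO XX and 6.38 ± 0.11 in WT XX (SD, n = 3 each). Its difference was -0.32 ± 0.11 in XY (adjusted p = 0.0808) and -0.57 ± 0.11 in XX (adjusted p = 0.00306). Both probe sets thus had the same direction and unequal sizes. A mean over both gave -1.98 in XY and -2.00 in XX for the gene, with adjusted p-values under the threshold. The KO means of the dimmer probe set lay close to the array medians of 5.88 to 5.94. No detection calls were used, so the size of its difference, and of the mean over both, is uncertain.

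The RefSeq windows of 250 bases before the annotated start are shown for Inhbb, the ligand gene that fell, and for Fstl1, the follistatin-related gene that rose, since these members moved in opposite directions. CpG pairs are in capitals, because CpG-rich promoters are a common place of Polycomb binding in mammals, and binding itself was not measured here.
Inhbb (GRCm38.p6, chr1:119422249-119422498, minus strand): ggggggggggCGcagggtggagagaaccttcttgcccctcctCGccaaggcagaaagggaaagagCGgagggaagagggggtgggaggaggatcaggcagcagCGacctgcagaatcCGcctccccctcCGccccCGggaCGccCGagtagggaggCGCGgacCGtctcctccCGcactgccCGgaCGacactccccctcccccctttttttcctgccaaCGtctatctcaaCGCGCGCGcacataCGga
Fstl1 (GRCm38.p6, chr16:37776805-37777054, plus strand): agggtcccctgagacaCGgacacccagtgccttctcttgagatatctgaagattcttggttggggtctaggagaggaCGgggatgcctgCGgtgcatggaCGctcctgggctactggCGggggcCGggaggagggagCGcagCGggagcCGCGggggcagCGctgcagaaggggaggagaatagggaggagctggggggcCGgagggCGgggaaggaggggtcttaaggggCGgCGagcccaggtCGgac

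The Inhbb window held 21 CpG pairs and the Fstl1 window 16, where the median of 32841 mouse windows was 6. The receptor genes had more, with 49 in Acvr2a and 42 in Acvr1b, though neither gene passed the test. Fstl3, which did not pass either, had 22, while Inha, which fell, had 4. Neither printed window held any of the 7 motifs searched on both strands. These were the GATA-type AGATAA and TGATAA (in 9.99% and 7.94% of all windows), the NR5A-type CAAGGTCA and CAAGGCCA (1.33% and 1.99%), the SMAD-type GTCTAGAC and CAGACA (0.167% and 17.1%) and the TATA box TATAAA (12.4%). The windows of Inhba, Inha and Acvr2b lie at a start inside the annotated gene span, not at its outermost start. Of the 8 member genes with a window, only Fstl3 and Inhba held TATAAA and only Fstl3 held CAGACA. These letters describe the windows and say nothing of what binds there.

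Inha, which encodes the alpha subunit that turns a beta subunit into inhibin, followed Inhbb. It read 7.07, 6.73 and 7.11 in the KO XY arrays, against 9.31, 9.65 and 9.36 in the WT XY arrays. In XX it read 6.87, 6.79 and 7.54 in the KO arrays, against 9.80, 9.40 and 9.20 in the WT arrays. The KO and WT arrays did not overlap in either sex. The difference was -2.47 ± 0.20 in XY (adjusted p = 2.11e-06 by limma) and -2.40 ± 0.20 in XX (adjusted p = 3.29e-06), or 5.56-fold and 5.28-fold lower levels. The positions among decreases were 67 and 54.

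Within the knockout arrays Inhbb and Inha also varied together. KO XX replicate 3 was the highest of the 6 KO arrays for both genes and KO XY replicate 2 the lowest. The mean log2 level of the 6 gonadal somatic markers was likewise highest in KO XX replicate 3, at 10.42, where the other KO arrays lay between 9.96 and 10.22. It was lowest in KO XX replicate 1, at 9.96, and not in KO XY replicate 2, at 10.03. The list includes Nr5a1, one of the genes closest in profile to Inhbb. The part of tissue content in this variation was not tested.

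Inhba encodes the beta subunit of activin A, the other ligand subunit. Its brighter probe set averaged 5.56 ± 0.20 in KO XY and 5.73 ± 0.04 in WT XY, and 5.62 ± 0.31 in KO XX and 5.67 ± 0.01 in WT XX (SD, n = 3 each). These levels sat at percentile 45.6 of all probe set means, close to the array medians, and the dimmer probe set sat at percentile 35.8. No detection calls were used here, so it is not known whether Inhba was detected at all. The differences were -0.18 (interval -0.49 to 0.13) in XY and -0.05 (interval -0.36 to 0.26) in XX, which are far from the Inhbb decreases but do not show that Inhba was level.

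Fst, the antagonist, fell on both of its probe sets. The brighter one (1434458_at) read 5.58, 5.90 and 6.44 in the KO XY arrays, against 9.14, 9.55 and 9.28 in the WT XY arrays. It read 5.60, 5.71 and 5.90 in the KO XX arrays, against 9.50, 10.88 and 9.67 in the WT XX arrays. All 6 KO arrays lay below all 6 WT arrays, and WT XX replicate 2 stood highest. Fst changed by -3.35 ± 0.29 (adjusted p = 3.92e-06 by limma) in XY gonads and -4.28 ± 0.29 (adjusted p = 5.48e-07) in XX gonads, or 10.2-fold and 19.4-fold lower levels. Among all probe sets these were the decreases in positions 25 and 3. The KO means, 5.975 in XY and 5.738 in XX, lay close to the array medians of 5.88 to 5.94. No detection calls were used, so it is not known whether Fst was detected in KO, and the fold sizes are uncertain.

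The dimmer Fst probe set (1421365_at) gave 5.45, 5.71 and 5.66 in KO XY, against 8.44, 8.004 and 8.05 in WT XY, and 5.30, 5.39 and 5.41 in KO XX, against 8.63, 8.79 and 8.18 in WT XX. Its differences were -2.56 ± 0.16 in XY (adjusted p = 1.80e-07) and -3.16 ± 0.16 in XX (adjusted p = 3.91e-08). Both probe sets had the same order of group means, with WT XX highest, then WT XY, KO XY and KO XX. On the dimmer one the KO means, 5.608 in XY and 5.37 in XX, lay below the array medians, so the order of the KO groups is uncertain. Arrays of XY and XX overlapped within each genotype, other than KO XY and KO XX on the dimmer probe set. In XX, 6 of 7 pregranulosa markers fell too, and 4 of 7 in XY, a list without Fst. The mean log2 level of these 7 markers was 6.86 to 6.94 in KO XY and 8.04 to 8.09 in WT XY, and 6.57 to 6.75 in KO XX and 8.02 to 8.38 in WT XX. Of the 5 Sertoli markers, 4 fell in XY and 3 in XX, with a mean of 5.85 to 6.05 in KO XY and 8.18 to 8.52 in WT XY, and of 6.18 to 6.30 in KO XX and 7.44 to 7.56 in WT XX. What part either list's shift has in the Fst difference was not tested.

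Fstl3, a follistatin-like protein that also binds activin, averaged 5.35 ± 0.15 in KO XY and 5.56 ± 0.12 in WT XY, and 5.42 ± 0.11 in KO XX and 5.53 ± 0.22 in WT XX. Its differences were -0.21 (interval -0.49 to 0.08) in XY and -0.11 (interval -0.39 to 0.17) in XX. A decrease of the size of Fst lies outside both intervals, but the probe set was dim, at percentile 42.7 of all means. Its group means lay below the array medians of 5.88 to 5.94, so such a decrease could hardly have shown. No detection calls were used, and it is not known whether Fstl3 was detected at all.

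Fstl1 encodes a secreted protein with a follistatin-like domain and was the 1 member gene that rose. Its brighter probe set (1416221_at) read 12.04, 11.95 and 11.97 in the KO XY arrays, against 11.34, 11.11 and 11.07 in the WT XY arrays. It read 11.93, 11.54 and 11.66 in the KO XX arrays, against 11.01, 11.26 and 10.90 in the WT XX arrays. All KO arrays lay above all WT arrays. Fstl1 rose by 0.81 ± 0.13 (adjusted p = 0.000864 by limma) in XY gonads and 0.65 ± 0.13 (adjusted p = 0.00486) in XX gonads.

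The other Fstl1 probe set (1448259_at) rose by 0.75 ± 0.13 (adjusted p = 0.00113) in XY gonads and 0.87 ± 0.13 (adjusted p = 0.000374) in XX gonads. Its XY call ended with the RNA-integrity covariate, at a difference of 0.63 ± 0.18 and adjusted p = 0.0994, while the brighter probe set passed there at adjusted p = 0.0339. This covariate was the Gapdh 3′ minus 5′ difference, a measure of RNA or amplification length. It averaged 4.91 ± 0.12 in KO XY and 4.13 ± 0.38 in WT XY (exact permutation p = 0.1, the smallest that 3 against 3 allows). The KO XY arrays (4.776 to 4.998) and WT XY arrays (3.895 to 4.569) did not overlap in it. In XY the covariate and genotype thus cannot be fully told apart, whether a call is lost or kept. With the covariate, Inhbb still had -3.40 (adjusted p = 5.19e-05), Inha -2.23 (adjusted p = 0.000479) and the brighter Fst probe set -3.61 (adjusted p = 0.000247) in XY.

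**Figure D2:**
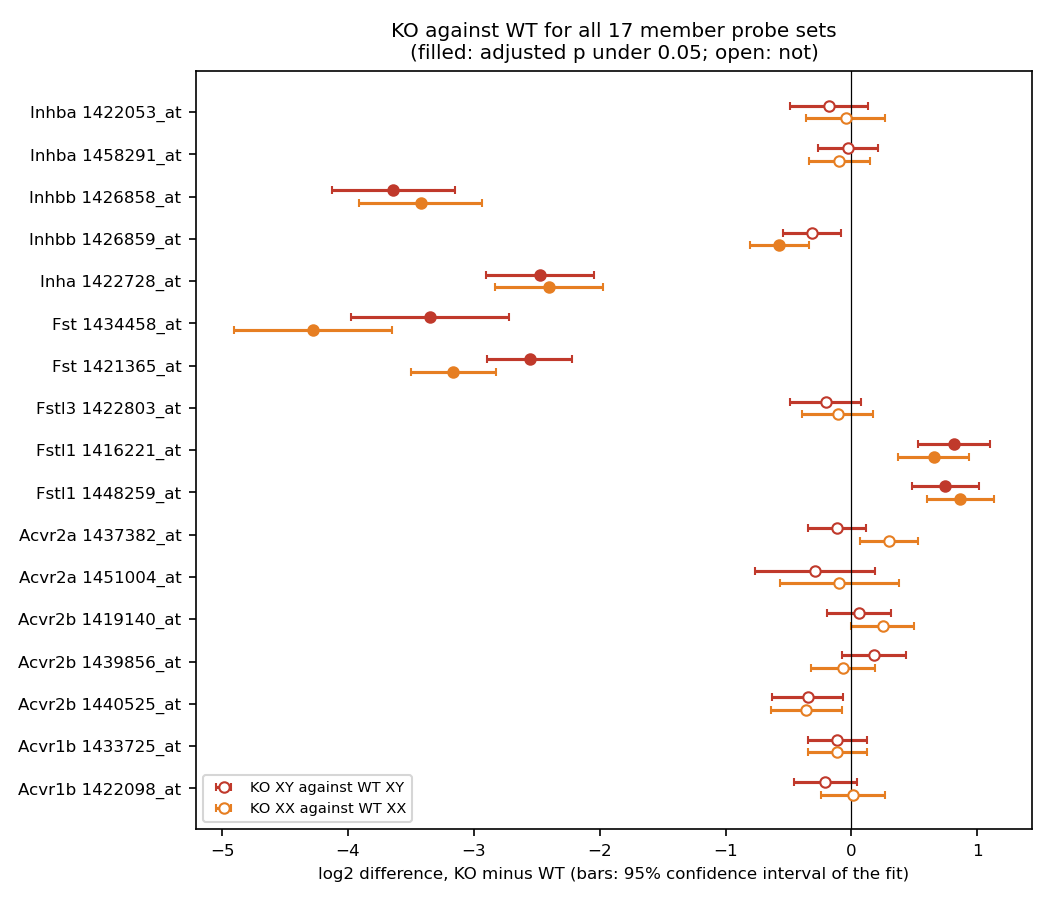
The plot of all 17 member probe sets shows the log2 difference KO minus WT with its 95% confidence interval, for XY and for XX gonads, with filled points at an adjusted p under 0.05. The brighter Inhbb, the Inha and both Fst probe sets lie between -4.28 and -2.40, both Fstl1 probe sets lie above 0.6, and the receptor probe sets lie between -0.36 and 0.30.

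The receptors showed differences of at most 0.36 units in either direction in XY or XX, and none of the 7 probe sets passed limma. An unadjusted p under 0.05 was found for 1 of them in XY and 2 in XX, and for 23.5% and 24.5% of all probe sets. Acvr2a, a type II receptor, had a brighter probe set (1437382_at) at 8.37 ± 0.11 in KO XY and 8.48 ± 0.01 in WT XY, and at 8.67 ± 0.05 in KO XX and 8.37 ± 0.14 in WT XX (SD, n = 3 each). The KO XX arrays lay above the WT XX arrays without overlap, with a difference of 0.30 ± 0.11 (adjusted p = 0.0926). It passed without WT XX replicate 1 (adjusted p = 0.0484) and with the spike-in level as a covariate (adjusted p = 0.0405). The dimmer Acvr2a probe set had -0.10 ± 0.22 in XX.

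Acvr2b, the other type II receptor, had 8.50 ± 0.11 in KO XY and 8.44 ± 0.08 in WT XY, and 8.67 ± 0.20 in KO XX and 8.43 ± 0.02 in WT XX on its brightest probe set. Its differences were 0.06 (interval -0.19 to 0.31) in XY and 0.25 (interval -0.01 to 0.50) in XX. Its 3 probe sets did not move one way. The dimmest (1440525_at, percentile 35.9) had -0.35 ± 0.13 in XY and -0.36 ± 0.13 in XX, with KO and WT arrays apart in both sexes.

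Acvr1b, the type I receptor for activin, averaged 9.56 ± 0.11 in KO XY and 9.67 ± 0.08 in WT XY, and 9.54 ± 0.09 in KO XX and 9.65 ± 0.12 in WT XX. Its difference was -0.11 in each sex, with an interval from -0.35 to 0.12. A decrease as on the brighter Inhbb probe set or either Fst probe set lies outside the intervals of all 7 receptor probe sets. That of the dimmer Inhbb probe set in XY lies inside several of them. A large decrease could hardly have shown in full on dim probe sets. The dimmer Acvr1b (percentile 38.1) and the dimmest Acvr2b probe set lay below the array medians of 5.88 to 5.94 in every group. No detection calls were used, so for them the intervals do not tell whether the transcript fell.

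Averaged over both sexes, a comparison that uses the same arrays again, 6 member probe sets fell and 2 rose, where of all probe sets 20.3% passed, 9.16% lower and 11.2% higher. Differences were -3.53 ± 0.16 for Inhbb, -2.44 ± 0.14 for Inha and -3.81 ± 0.21 for Fst on the brightest probe sets, and 0.73 ± 0.09 for Fstl1. The receptor probe set added to the calls was the dimmest of Acvr2b, at -0.35 ± 0.09 (adjusted p = 0.0138), while its brightest had 0.15 ± 0.08 (adjusted p = 0.231). Both Inhbb probe sets passed.

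Between the sexes no member passed the test. In KO gonads none of the 17 probe sets passed limma for XY against XX, where 0.0286% of all probe sets did, and 1 had an unadjusted p under 0.05, as did 10.6% of all. It was the brighter Acvr2a probe set, at -0.30 ± 0.11 (adjusted p = 0.393). In WT gonads none passed either, where 0.0572% of all did, and 3 had an unadjusted p under 0.05, as did 9.36% of all. These 3 were both Fst probe sets and 1 of Acvr2b (1439856_at, -0.29 ± 0.12, adjusted p = 0.516). Inhbb was at 9.98 ± 0.11 in WT XY and 10.01 ± 0.09 in WT XX, a difference of -0.03 (interval -0.52 to 0.45), and Inha differed by -0.03 (interval -0.46 to 0.40).

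Fst had a lower mean in WT XY, at 9.32 ± 0.21, than in WT XX, at 10.02 ± 0.76. The difference was -0.69 ± 0.29 (adjusted p = 0.517), and -0.37 ± 0.16 on the dimmer probe set (adjusted p = 0.519). It moved with single WT XX arrays. Without WT XX replicate 2 the difference of the brighter probe set was -0.26 ± 0.21 (adjusted p = 0.913), and without WT XX replicate 1, whose mean correlation over probe sets was 0.9946 with the WT XY arrays and 0.9872 with the other WT XX arrays, it was -0.95 ± 0.29 (adjusted p = 0.0653). Between KO XY and KO XX the Fst difference was 0.24 ± 0.29.

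The difference of the knockout effect between the sexes was tested directly as XY minus XX. None of the 17 probe sets passed limma, where 0.00858% of all did, and 3 had an unadjusted p under 0.05, as did 6.56% of all. These were Fst on both probe sets, at 0.93 ± 0.41 (adjusted p = 0.754) and 0.61 ± 0.22 (adjusted p = 0.749), and the brighter Acvr2a probe set, at -0.42 ± 0.15 (adjusted p = 0.749). For Inhbb it was -0.22 (interval -0.91 to 0.47) and for Inha -0.07 (interval -0.68 to 0.53). The larger Fst decrease in XX than in XY is thus not shown to differ between the sexes.

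Genes with the profile closest to each of the 3 members that fell were ranked by Pearson's r of log2 values over the 12 arrays, among 1112 genes whose group means spanned at least 1 unit. These correlations describe 12 arrays that share a normalization and differ most by genotype. For Inhbb the closest were Hs6st1 (r = 0.995), a heparan sulfate sulfotransferase, then Smpdl3b, Nr5a1 and Uhrf1bp1l (each r = 0.994) and Ereg (r = 0.993), an epidermal growth factor family ligand. Nr5a1, the orphan nuclear receptor needed for gonad formation, read 7.92, 7.68 and 7.92 in KO XY, against 10.33, 10.02 and 10.21 in WT XY. In XX it read 7.83, 7.75 and 8.33 in the KO arrays, against 10.29, 9.87 and 9.87 in the WT arrays. Its highest KO array was again KO XX replicate 3. The mean of all Nr5a1 probe sets differed by -1.08 in each sex, and passed.

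For Inha the closest were Ccdc61 (r = 0.994), Smpdl3b and Pacc1 (each r = 0.993), Inhbb itself (r = 0.992) and Rph3al (r = 0.991). For Fst they were Adgrg1 (r = 0.990), an adhesion G protein-coupled receptor, Ccdc30 (r = 0.984), Plxdc1 (r = 0.981), and Ablim3 and Svopl (each r = 0.977). Inhbb held position 49 in the Fst ranking (r = 0.960) and Inha position 57 (r = 0.957). The 5 closest genes of Fst shared none with those of Inhbb and Inha. All 5 were, like Fst, highest in WT XX replicate 2, where Ereg alone of the genes closest to Inhbb and Inha was highest. How far this array sets the Fst ranking was not tested.

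**Figure D3:**
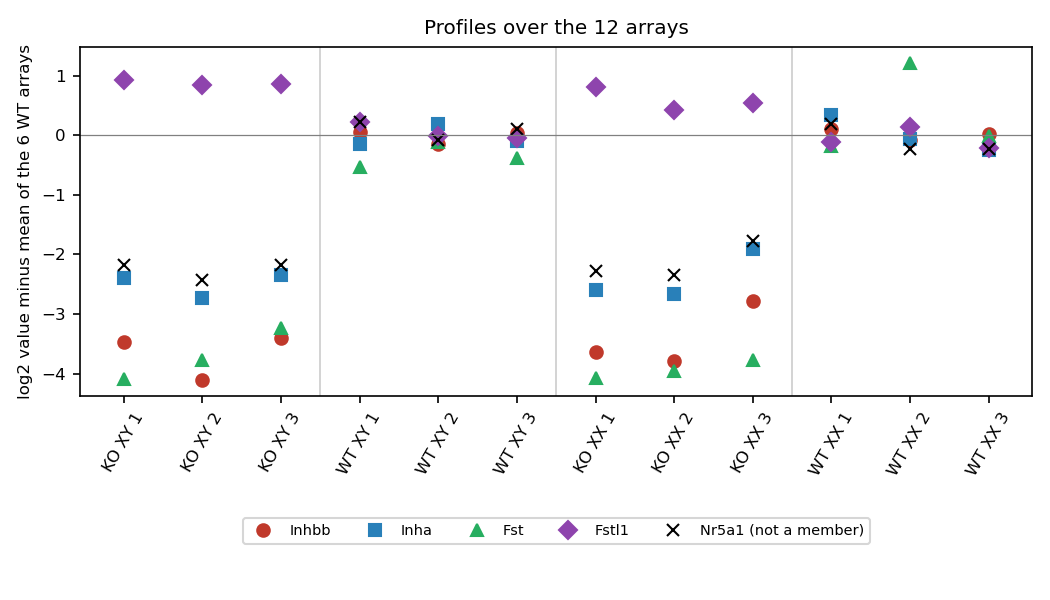
The plot of profiles over the 12 arrays shows the log2 value of Inhbb, Inha, Fst, Fstl1 and, for comparison, Nr5a1, minus the mean of the 6 WT arrays, for each array of KO XY, WT XY, KO XX and WT XX. Inhbb, Inha and Nr5a1 are highest among KO arrays in KO XX replicate 3, while Fst is highest among them in KO XY replicate 3 and highest of all in WT XX replicate 2.

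Beyond these 9 genes, 51 other genes of the activin and TGF-beta superfamily pathway were listed, of which 48 had a single-gene probe set. In XY, 5 rose, 4 fell and 39 did not pass, so that 18.8% passed, beside 12.4% of all genes. In XX, 10 rose, 2 fell and 36 did not pass, so that 25% passed, beside 12.6% of all genes. Their median difference was 0.02 in XY and 0.01 in XX, beside 0.00 and -0.02 over all probe sets. Averaged over both sexes, 12 rose, 7 fell and 29 did not pass, so that 39.6% passed, beside 20.3% of all probe sets. The counts moved with the processing, from 2 to 6 higher in XY and from 4 to 9 higher in XX when single arrays were left out (2 in XY without WT XY replicate 1, and 4 in XX without KO XX replicate 3). In XY they were 2 higher and 1 lower with the Gapdh covariate.

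Among other ligands, Tgfb3, which encodes a transforming growth factor beta, averaged 8.39 ± 0.11 in KO XY and 6.97 ± 0.17 in WT XY, and 8.62 ± 0.25 in KO XX and 6.96 ± 0.25 in WT XX. It rose by 1.42 ± 0.16 (adjusted p = 3.22e-05) in XY gonads and 1.65 ± 0.16 (adjusted p = 9.42e-06) in XX gonads. Lefty2, a secreted inhibitor of Nodal signalling, fell by 0.80 ± 0.19 (adjusted p = 0.0139) in XY gonads and 0.91 ± 0.19 (adjusted p = 0.00623) in XX gonads, and lost its XY call with the Gapdh covariate (-0.52, adjusted p = 0.483) and when KO XY replicate 2 or 3 or WT XY replicate 1 or 2 was left out (adjusted p from 0.0542 to 0.0666). The Lefty2 means were 4.63 in KO XY and 5.43 in WT XY, and 4.79 in KO XX and 5.70 in WT XX. All lay below the array medians of 5.88 to 5.94. No detection calls were used, so it is not known whether Lefty2 was detected at all. Nodal itself had 0.24 ± 0.14 in XY and -0.24 ± 0.14 in XX.

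Pcsk6 encodes PACE4, a proprotein convertase that cleaves precursors of this ligand family. It averaged 7.50 ± 0.10 in KO XY and 8.69 ± 0.12 in WT XY, and 7.58 ± 0.08 in KO XX and 8.33 ± 0.17 in WT XX. It fell by 1.20 ± 0.12 (adjusted p = 1.13e-05) in XY gonads and 0.76 ± 0.12 (adjusted p = 0.00069) in XX gonads. The related convertases Furin and Pcsk5 had differences between 0.09 and 0.33 that did not pass.

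Among the other receptors, Acvr1, a type I receptor mainly of BMPs, rose by 0.88 ± 0.14 in XX (adjusted p = 0.000658) and by 0.46 ± 0.14 in XY (adjusted p = 0.0409, a call that ended when KO XX replicate 2, KO XY replicate 1 or 3, or any of the WT XY arrays was left out). The XY call was also lost with the Gapdh covariate, at 0.44 ± 0.20 (adjusted p = 0.414). It was lost too with the mean of the Acvr1 probe sets, at 0.20 (adjusted p = 0.153), where XX had 0.35 (adjusted p = 0.0125). Acvr1c, another of these receptors, did not pass limma, at -0.74 ± 0.23 in XY (adjusted p = 0.0503) and -0.62 ± 0.23 in XX (adjusted p = 0.101). Averaged over both sexes Acvr1c passed, at -0.68 ± 0.16 (adjusted p = 0.0072). Its means were 5.85 in KO XY and 6.60 in WT XY, and 6.36 in KO XX and 6.99 in WT XX. Tgfbr3, which encodes betaglycan, the co-receptor that lets inhibin block activin receptors, averaged 10.93 ± 0.16 in KO XY and 10.68 ± 0.08 in WT XY, and 11.21 ± 0.17 in KO XX and 10.46 ± 0.23 in WT XX. It rose by 0.75 ± 0.14 in XX (adjusted p = 0.00258) and had 0.25 ± 0.14 in XY (adjusted p = 0.314), with 0.41 in XX as the mean of its probe sets, which passed. The sex difference of that effect did not pass (adjusted p = 0.749).

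Of the transducers, Smad4, the partner of all receptor-activated SMADs, rose by 0.66 ± 0.15 (adjusted p = 0.00979) in XY gonads and 0.54 ± 0.15 (adjusted p = 0.0301) in XX gonads. A mean over its probe sets gave 0.23 in each sex, which did not pass, its XY call was lost with the Gapdh covariate (adjusted p = 0.43), and its XX call ended when KO XX replicate 2 or 3 or WT XX replicate 1 was left out. Smad6, an inhibitory SMAD, rose by 0.70 ± 0.17 (adjusted p = 0.016) in XY gonads and 0.65 ± 0.17 (adjusted p = 0.0225) in XX gonads. Pmepa1, a negative regulator that TGF-beta itself induces, rose by 0.40 ± 0.12 (adjusted p = 0.0404) in XY gonads and 0.56 ± 0.12 (adjusted p = 0.00584) in XX gonads. The Smad6 calls were each lost without at least 3 of the single arrays (adjusted p up to 0.0967), and the XY call of Pmepa1 without at least 3 as well (adjusted p up to 0.183). Pmepa1 had 0.22 in XY with the mean of its probe sets (adjusted p = 0.182) and adjusted p = 0.491 there with the Gapdh covariate. Smad2 and Smad3, which carry the activin signal, had -0.33 ± 0.11 and 0.21 ± 0.13 in XY and 0.01 ± 0.11 and 0.38 ± 0.13 in XX, without passing. Averaged over both sexes, Smad3 passed limma at 0.29 ± 0.09 (adjusted p = 0.032), while Smad2 had -0.16 ± 0.08 (adjusted p = 0.171).

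**Figure D4:**
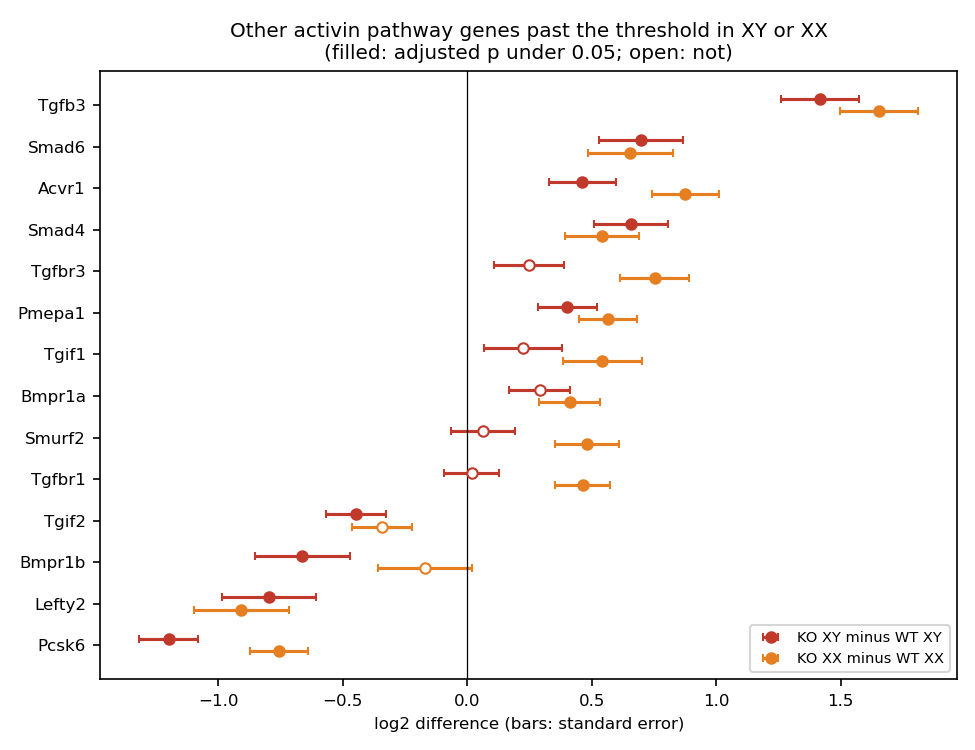
The plot of other activin pathway genes shows the log2 difference KO minus WT with its standard error for the 14 genes that passed in XY or XX, with filled points at an adjusted p under 0.05. Tgfb3 lies highest, at 1.42 in XY and 1.65 in XX, and the lowest points are Pcsk6 in XY at -1.20 and Lefty2 in XX at -0.91.

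The remaining calls were in Tgfbr1, Bmpr1a, Tgif1 and Smurf2, which rose in XX by 0.41 to 0.54, and in Bmpr1b and Tgif2, which fell in XY by 0.66 and 0.45. Each of these was lost without at least 1 array, Tgfbr1 for example without KO XX replicate 3 (adjusted p = 0.0574). Averaged over each gene's probe sets, Smurf2 had 0.13 (adjusted p = 0.424), Tgfbr1 0.25 (adjusted p = 0.0915) and Bmpr1a 0.26 (adjusted p = 0.119) in XX, none of which passed limma, and Bmpr1b had -0.35 in XY, which passed. The 7 measured antagonists and follistatin-related genes outside the member set, among them Nog, Chrd and Grem1, had adjusted p-values of at least 0.0848 by limma in XY and XX.

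Of the 6 gonadal somatic markers, Gata4, Nr5a1 and Lhx9 fell in both sexes, Tcf21 rose in XX by 1.07 ± 0.17 (adjusted p = 0.000803), and Wt1 and Emx2 did not pass. Lhx9 changed by -1.21 ± 0.17 (adjusted p = 0.000293) in XY gonads and -0.95 ± 0.17 (adjusted p = 0.00207) in XX gonads. Gata4, the protein of which guided the capture, averaged 7.52 in KO XY and 9.02 in WT XY, and 7.50 in KO XX and 8.91 in WT XX. Averaged per array, these 6 markers read 10.03 to 10.22 in KO XY and 10.94 to 10.97 in WT XY, and 9.96 to 10.42 in KO XX and 10.68 to 10.95 in WT XX, without overlap. Mean log2 levels of the 6 coelomic epithelium markers were 9.28 to 9.34 in KO XY and 8.003 to 8.19 in WT XY, and 9.28 to 9.47 in KO XX and 7.90 to 7.99 in WT XX. Those of the 7 endothelial markers were 6.27 to 6.95 in KO XY and 7.49 to 7.66 in WT XY, and 6.49 to 7.24 in KO XX and 7.28 to 7.48 in WT XX. Those of the 6 macrophage markers were 7.99 to 8.01 in KO XY and 7.27 to 7.57 in WT XY, and 7.69 to 8.45 in KO XX and 7.23 to 7.62 in WT XX. By gene, 5 of the 6 coelomic epithelium markers rose in each sex, and only 2 of the 6 macrophage markers did. Of the 7 endothelial markers, 5 fell in XY and 3 in XX. The rest of these 3 lists did not pass. Only Calb1 of the 4 measured mesonephros markers fell, at -3.45 in XY and -2.09 in XX. Only Mc2r of the 3 measured adrenal markers rose, at 1.22 in XY and 1.26 in XX. The mean of each of these lists separated KO from WT arrays in XY and not in XX. Of the 7 germ cell markers 2 rose in XX and none passed in XY, and no erythroid marker passed. The part of these shifts in the member differences was not tested.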

How the data were processed

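The deposited values are log2 values that the authors made with RMA (background correction, quantile normalization across arrays and summary per probe set). Expression Console of Affymetrix, affy and RMA are listed, without versions, per the submitters' processing notes. Per the labels' protocols, 15 ng of total RNA per pool was amplified in 2 cycles and labelled with biotin. Values ran from 2.37 to 15.01, with array medians from 5.88 to 5.94. No raw scans, scan dates or batches were used here, and the number of arrays limits the precision.

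Of 45101 probe sets, 64 controls, 932 assigned to several genes and 9160 to none were left out. All 34945 others (18193 genes) were fitted in limma 3.58.1 (R 4.3.3, lmFit and eBayes) with 4 group means and 8 residual degrees of freedom, two-sided, and adjusted within each of 6 contrasts. On data simulated for KO XY against WT XY with 34945 probe sets, 79% of log2 shifts of 1 and 99% of shifts of 2 were recovered. For the difference of the knockout effect between the sexes these shares were 54% and 96%. In each simulation 100 probe sets carried each shift, far fewer than the 3804 that passed in the real XY data. Shifts under 1 were not simulated.

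The members and lists were chosen with earlier results of these data known. All 9 members were named, with the other pathway genes that passed in XY or XX and the 5 genes closest in profile to members spanning 1 unit. Predicted and unnamed genes were passed over. Same-numbered arrays of different groups were not paired by the labels, and their deviations correlated between -0.185 and 0.243. Promoter windows came from RefSeq (GRCm38.p6), where 8 of 9 members had one.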

Additional observations from a re-analysis of the deposited data

How the results depend on the processing

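Over 26 alternative settings, 12 of which left out a single array, the 102 member differences gave 2522 alternative values. None of those that passed reversed, 2 lost a call, 3 gained one, and 103 of the rest changed sign without passing. Member genes that passed numbered 4 in XY in every setting, and 4 to 5 in XX when single arrays were left out. The losses were Fstl1 (1448259_at) in XY with the Gapdh covariate and Acvr2b (1440525_at) averaged over the sexes at an adjusted p under 0.01. The gains were Inhbb (1426859_at) in XY with array weights (adjusted p = 0.0213) and Acvr2a in XX under 2 settings. The share of all probe sets that passed moved more. In XY it was 19.4% with array weights, 17% from only the groups compared, 3% with the Gapdh covariate, 5.66% at 0.01 and 6.94% to 15.2% leaving out single arrays (6.94% without WT XY replicate 1). In XX it was 6.52% from only the groups compared, 5.5% at 0.01 and 8.1% to 10.8% leaving out arrays, and averaged over the sexes 12% at 0.01 and 16.1% to 20.6%. XY against XX in KO gave 0.0458% with the Gapdh and 0.0916% with the spike-in covariate, and 0.0258% to 0.0572% leaving out arrays. In WT it gave 1.17% with array weights, 0.0372% from only the groups compared and at 0.01, and 0.0401% to 6.95% leaving out arrays, the highest without WT XX replicate 1. The sex difference of the effect gave 0.0055% with 1 probe set or the mean of probe sets per gene, 0% with the Gapdh covariate, and 0.00858% to 0.0258% leaving out arrays. Of the other pathway genes, those higher in XX numbered 6 with repeated quantile normalization or the mean of probe sets, 4 from only the groups compared and at 0.01, and 4 to 9 leaving out arrays. Those higher in XY numbered 2 with the mean, with the Gapdh covariate and at 0.01, and 2 to 6 leaving out arrays. Those lower in XX numbered 5 with the mean and 2 to 3 leaving out arrays. Those lower in XY numbered 7 with array weights, 8 from only the groups compared, 1 with the Gapdh covariate and at 0.01, and 1 to 5 leaving out arrays. The cause of these shifts was not tested. In XY the Gapdh covariate also separated the KO arrays from the WT arrays. So did the spike-in level, at 10.63 to 10.94 in KO XY and 10.36 to 10.58 in WT XY. With the spike-in level as a covariate in limma, Bmpr1b (adjusted p = 0.054), Tgif2 (0.0634) and Pmepa1 (0.0664) lost their XY calls. With the replicate number as a block, 4 member genes passed in XY and in XX and Bmpr1a lost its XX call (adjusted p = 0.051). Arrays of 3 a group, dim probe sets and the amplification of little RNA limit what small differences can be seen.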
